A study of Drosophila melanogaster with 3 samples.

Results

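The regions described here are the ChIP-seq peaks at the heterochromatic end of the Drosophila melanogaster genome map: the bases of the 5 long chromosome arms next to the centromeres, the 6 placed heterochromatin sequences whose names end in Het, and the small chromosome 4. Peaks were taken by position alone, in the coordinates of the deposited lists. At an arm base a peak started at 21 Mb or beyond on 2L, at 22.5 Mb or beyond on 3L or at 20.4 Mb or beyond on X, or ended within the first 2 Mb of 2R or 3R. This gave 142 of the 2846 peaks in the list of Mod(mdg4)2.2, 410 of the 7621 in that of Mod(mdg4)BTB and 207 of the 3352 in that of L(3)mbt, or 759 of 13819 in all. Of these, 573 lay at the arm bases, 135 on the Het sequences and 51 on chromosome 4.

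The peaks come from Kc167 cells, an established line of embryonic origin grown without serum. There was 1 library for each of 3 antibodies, against the 2.2 isoform of Mod(mdg4), against Mod(mdg4)BTB, which takes in all isoforms, and against L(3)mbt. The BTB antibody thus covers the 2.2 isoform too, so the lists do not stand for 3 separate proteins. No genotype or treatment distinguishes the libraries, and the control reads, made in an earlier study of the same line, were not analysed here. The files hold peaks and no reads, so depth is unknown, libraries cannot be compared in their level of binding, and no difference has a replicate check. Intervals below are 95% intervals that cover counting error only, exact Poisson for densities and Wilson for shares, and neighbouring peaks are not independent.

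Mod(mdg4) proteins share a BTB domain, through which they join to each other, and differ in their C-terminal parts. The 2.2 isoform works with Su(Hw) at the insulator of the gypsy transposon, and the gene was also found as a modifier of position-effect variegation, the patchy silencing of genes placed next to heterochromatin. L(3)mbt carries MBT repeats, acts in repressor complexes and was named for the malignant brain tumours of mutant larvae. Pericentric heterochromatin is rich in repeats and carries H3K9 methylation and the protein HP1. Chromosome 4 is coated with HP1 as well, but many of its genes are expressed. The bases of the long arms pass from repeat-rich sequence near the centromere into ordinary gene-rich euchromatin.

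Pooled over each class of zone, all 3 lists had fewer peaks per Mb than along the rest of the long arms. The L(3)mbt list did not at the bases of 2L and 3R. Without a run of peaks described below, the 2L base held 23.5 L(3)mbt peaks per Mb, against 24.9 on the long arms outside. No interval was computed for that 23.5. The arm bases held 95, 300 and 178 peaks in the lists of 2.2, BTB and L(3)mbt, at densities of 9.74 (7.88 to 11.9), 30.8 (27.4 to 34.4) and 18.3 (15.7 to 21.1) per Mb. The Het sequences held 40, 75 and 20 peaks, at 4.57 (3.27 to 6.23), 8.57 (6.74 to 10.7) and 2.29 (1.40 to 3.53) per Mb. Chromosome 4 held 7, 35 and 9 peaks, at 5.29 (2.13 to 10.9), 26.4 (18.4 to 36.8) and 6.80 (3.11 to 12.9) per Mb. The long arms outside the zones held 19.3 (18.5 to 20.1), 53.7 (52.3 to 55.1) and 24.9 (24.0 to 25.9) per Mb, above the interval of every zone class for every list. The ratio between lists was not the same in each class. BTB peaks outnumbered L(3)mbt peaks 75 to 20 on the Het sequences and 35 to 9 on chromosome 4, against 300 to 178 at the arm bases and 5844 to 2712 on the long arms outside. How much of each zone short reads can be aligned to was not tested, and a density takes a zone to end at its last peak.

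**Figure D1:**
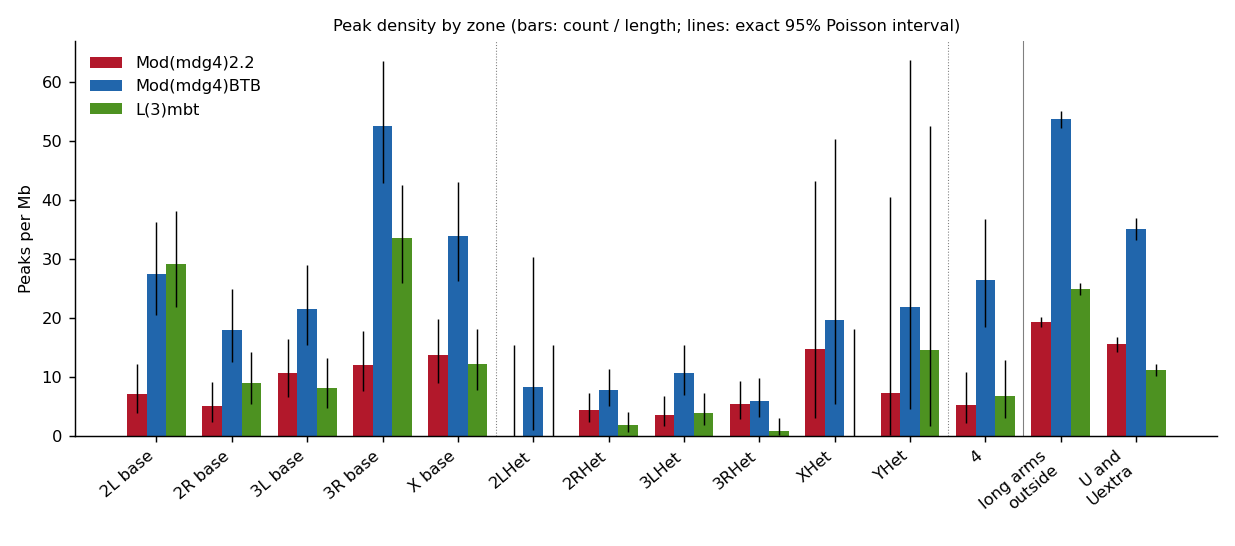
Peaks per Mb of each list (bars, with exact 95% Poisson intervals as lines) in the 5 arm bases, the 6 Het sequences and chromosome 4, then on the long arms outside these zones and on the unplaced sequences U and Uextra. The 3R base, at 52.5 BTB peaks per Mb, stands close to the long arms outside, at 53.7, while 2RHet, 3LHet and 3RHet stay between 5.89 and 10.6.

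The 5 arm bases differed among themselves. The 3R base was the densest in BTB and L(3)mbt, with 24, 105 and 67 peaks in the lists of 2.2, BTB and L(3)mbt over 2.00 Mb. Its BTB density of 52.5 per Mb (42.9 to 63.6) and its L(3)mbt density of 33.5 (26.0 to 42.5) did not lie below those of the long arms outside, 53.7 and 24.9, and the L(3)mbt interval lay above. Its 2.2 density of 12.0 per Mb (7.69 to 17.9) was below that of the long arms outside, 19.3. The 2R base was the sparsest in 2.2 and BTB, with 10, 36 and 18 peaks, or 5, 18 and 9 per Mb in the order 2.2, BTB and L(3)mbt. The 3L base held 21, 42 and 16 peaks and the X base 27, 67 and 24 in that order. The 2L base, with 13, 50 and 53, was the one arm base with more L(3)mbt than BTB peaks. Its L(3)mbt density of 29.2 per Mb (21.9 to 38.2) was not below that of the long arms outside either. Without a run of 13 L(3)mbt peaks described below, that base held 40 of them, fewer than its BTB peaks, at 23.5 per Mb. The X base was the densest in 2.2, at 13.7 per Mb (9 to 19.9).

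Peaks thinned out towards the centromere on some arms and not on others. In bins of 500 kb counted from the centromere-side end, the innermost bin of 2L held 0, 3 and 7 peaks of 2.2, BTB and L(3)mbt. On 3L the innermost 3 bins held 4, 4 and 5 BTB peaks and the next 30. On 2R they held 8, 3 and 2 BTB peaks and the next 23. These inner bins lie under the lowest count of 10 BTB peaks among the 216 bins of the long arms outside, where the median bin held 9, 26 and 12 peaks in the order 2.2, BTB and L(3)mbt. The innermost bin of 3R held 3, 24 and 22 and that of X held 6, 10 and 3. The centromere-side end was taken as the last peak of 2L, 3L and X and as the first base of 2R and 3R.

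**Figure D2:**
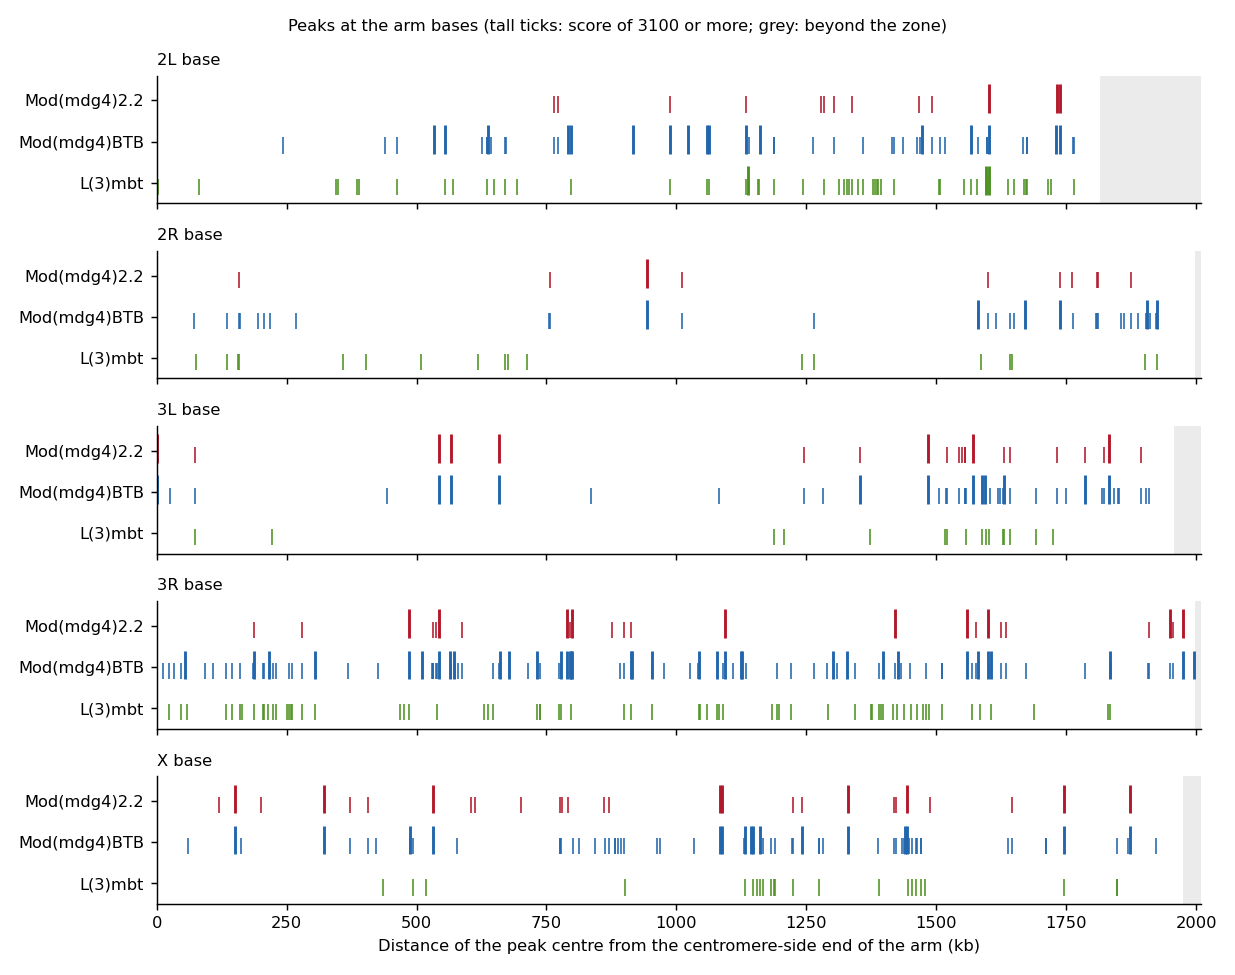
Position of each peak at the 5 arm bases, as the distance of its centre from the centromere-side end in kb, with 1 row per list. Tall ticks mark scores of 3100 or more, and the grey area lies beyond the zone. Inner 2R and inner 3L are sparse in BTB peaks, while those of 3R run to its end.

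Where peaks were few, some were still strong. The score in the lists is the peak caller's own, starts just above 100 and piles up at 3100, which is treated as a ceiling, and it serves only to rank peaks within 1 list. In the inner part of the 3L base, from 23 Mb on, there were 7, 12 and 5 peaks of 2.2, BTB and L(3)mbt, of which 4 of the 7 and 5 of the 12 stood at the ceiling. The outer 0.5 Mb held 14, 30 and 11 peaks, of which 3 of the 14 and 7 of the 30 stood there. The inner 1.5 Mb of the 2R base held 4, 13 and 13 peaks, with 1 of 2.2 and 1 of BTB at the ceiling, and its outer 0.5 Mb held 6, 23 and 5, with 0 and 5. Inner 2R was thus no poorer in L(3)mbt peaks than in BTB peaks. From 358103 to 713362 on 2R, a stretch of 355 kb, 7 sites in a row were held by L(3)mbt alone, with scores of 181.56 to 381.71. That stretch was picked out after the positions were seen. The longest interval of an arm base without any peak was also on 2R, 314 kb from 1265645 to 1579146. The longest such intervals were 246 kb on 3L, 162 kb on 2L, 150 kb on X and 97.0 kb on 3R.

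Peaks of 2.2 and BTB ranked lower on the Het sequences than at the arm bases or on the rest of the long arms. At the arm bases 30 of 95 peaks of 2.2 (31.6%, 23.1 to 41.5%), 87 of 300 of BTB (29.0%, 24.2 to 34.4%) and 3 of 178 of L(3)mbt (1.69%, 0.575 to 4.84%) stood at the ceiling. On the Het sequences these were 3 of 40 (7.5%, 2.58 to 19.9%), 6 of 75 (8%, 3.72 to 16.4%) and 0 of 20, which allows up to 15% (3 counts of the total, the limit used here for a count of 0). On chromosome 4 they were 4 of 7 (57.1%, 25.05 to 84.2%), 16 of 35 (45.7%, 30.5 to 61.8%) and 0 of 9, which allows up to 33.3%. Over all peaks of each list the shares were 25.6%, 25.7% and 1.52%, and on the long arms outside the zones 32.6%, 30.8% and 1.62%. The Het intervals of 2.2 and BTB lay below the shares on the long arms outside. Those of chromosome 4 took in these shares. Of its 16 BTB peaks at the ceiling, 7 lay in the cluster at the end of the chromosome, described below. On the unplaced sequences the shares were lower than on the Het sequences, at 1.16% (0.563 to 2.37%) for 2.2 and 3.58% (2.72 to 4.71%) for BTB. Within its own list, the median 2.2 peak had a percentile rank of 60.1 at the arm bases, 22.5 on the Het sequences and 87.2 on chromosome 4, against 60.8 on the long arms outside. The median ranks of BTB peaks were 52.7, 36.8 and 70.5, against 56.5. Those of L(3)mbt peaks were 45.6, 34.2 and 55.7, against 52.7.

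All 37 peaks of 2.2 in the zones with a score at the ceiling met a BTB peak, counted as at least 1 bp in common, and 4 of them met L(3)mbt. At 34 of their sites BTB was at the ceiling too. The same counts over all ceiling peaks of 2.2 were not made, so these counts are not shown to be particular to the zones. On the long arms outside, the median score of 2.2 peaks was 1345.62 with BTB and 168.5 without. Of the 2.2 peaks at the arm bases, 82 of 95 met BTB (86.3%, 78.0 to 91.8%), against 82.3% of all 2.2 peaks and 92.0% (90.8 to 93.1%) on the long arms outside. By arm the counts were 10 of 13 at the 2L base, 10 of 10 at 2R, 20 of 21 at 3L, 23 of 24 at 3R and 19 of 27 at X. The X base held 8 of the 13 peaks of 2.2 without BTB at the arm bases, with scores of 103.60 to 353.59, and 2L held 3, with scores of 101.37 to 274.32. In the opposite direction 89 of 300 BTB peaks met 2.2 (29.7%, 24.8 to 35.1%), against 33.2% of all BTB peaks and 36.02% (34.8 to 37.3%) on the long arms outside. Where the pair met, the median distance between peak centres was 40.2 bp at the arm bases and 40.5 bp on the long arms outside.

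On the Het sequences the 2.2 isoform met BTB less often. There 21 of 40 peaks of 2.2 met a BTB peak (52.5%, 37.5 to 67.1%), against 92.0% on the long arms outside and 49.7% on the unplaced sequences. The counts were 8 of 9 on 3LHet, 7 of 14 on 2RHet, 4 of 13 on 3RHet, 2 of 3 on XHet and 0 of 1 on YHet. Left out 1 sequence at a time, an alternative chosen after the counts were seen, the share ran from 41.9% without 3LHet to 63.0% without 3RHet. The 19 peaks without BTB had scores of 100.43 to 330.52, and 16 of them scored under 200. Of the 21 with BTB, 6 scored under 200. Low scores without BTB were not particular to these sequences. The median score of 2.2 peaks without BTB was 143.66 here, 168.5 on the long arms outside and 153.92 over all peaks. Peaks of 2.2 were also wider on the Het sequences, with a median of 1755 bp, against 1195 bp on the long arms outside, while the BTB medians were 652 and 649 bp. For BTB on the Het sequences, 25 of 75 peaks met 2.2 (33.3%, 23.7 to 44.6%).

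**Figure D3:**
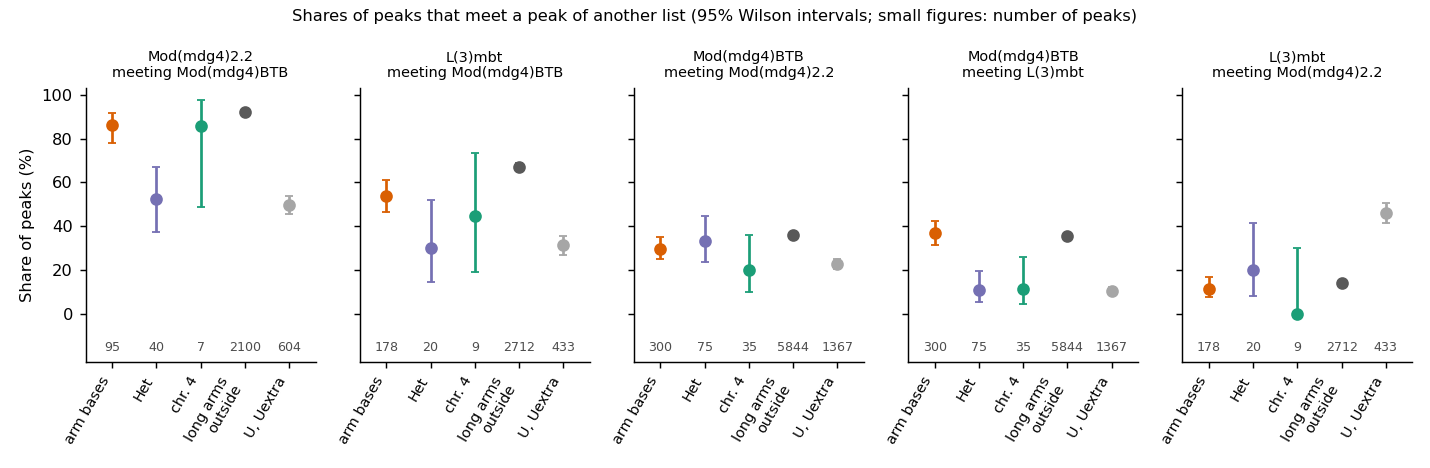
Share of the peaks of 1 list that meet a peak of another list by at least 1 bp, with 95% Wilson intervals and the number of peaks under each point, at the arm bases, on the Het sequences and on chromosome 4, then on the long arms outside and on U with Uextra. The share of 2.2 peaks with BTB is 86.3% at the arm bases and 52.5% on the Het sequences, against 92.0% on the long arms outside, and BTB peaks meet L(3)mbt at 10.7% on the Het sequences and 11.4% on chromosome 4, against 35.5%.

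L(3)mbt met BTB at 96 of its 178 peaks at the arm bases (53.9%, 46.6 to 61.1%), against 61.5% of all L(3)mbt peaks and 67.1% (65.3 to 68.8%) on the long arms outside. The arms differed, with 5 of 18 peaks at the 2R base, 23 of 53 at 2L, 40 of 67 at 3R, 11 of 16 at 3L and 17 of 24 at X. On the Het sequences 6 of 20 did (30.0%, 14.5 to 51.9%) and on chromosome 4 it was 4 of 9 (44.4%, 18.9 to 73.3%). Counted from the BTB side, 110 of 300 peaks at the arm bases met L(3)mbt (36.7%, 31.4 to 42.3%), which is close to the 35.5% (34.3 to 36.7%) on the long arms outside and compares with 30.7% of all BTB peaks. On the Het sequences 8 of 75 did (10.7%, 5.50 to 19.7%), and on chromosome 4 it was 4 of 35 (11.4%, 4.54 to 26.0%). Both intervals lie below the share on the long arms outside. For chromosome 4 this did not hold with peaks set to 400 bp, where the interval of 4.54 to 26.0% took in the 25.4% of the long arms outside. It did not hold either in the upper 50% of each list, at 8.33% (2.32 to 25.8%) against 23.1%. Without a cluster of 14 BTB peaks from 1278256 to 1323289, the share was 4 of 21 (19.0%, 7.67 to 40%). The unplaced sequences, at 10.3%, had a share like that of the Het sequences.

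At BTB peaks that also held 2.2, L(3)mbt was present at 21 of 89 on the arm bases (23.6%, 16.0 to 33.4%), and at those without 2.2 it was present at 89 of 211 (42.18%, 35.7 to 48.9%). The shares over all BTB peaks were 20.5% and 35.7%, and on the long arms outside 19.7% and 44.3%. The 2 shares were 30% and 60% on 2L, 25.9% and 46.2% on 3R, 15% and 36.2% on X, 18.2% and 24.0% on 2R, and 28.6% and 28.6% on 3L, in the order with and without 2.2. On the Het sequences the counts were 4 of 25 with 2.2 (16.0%, 6.40 to 34.7%) and 4 of 50 without it (8%, 3.15 to 18.8%), and these intervals overlap. On chromosome 4 they were 0 of 7 and 4 of 28. Among the unplaced sequences the shares were 26.1% and 5.75%. L(3)mbt and 2.2 met directly at 20 of 95 peaks of 2.2 on the arm bases (21.1%, 14.1 to 30.3%), against 21.0% of all 2.2 peaks, and at 4 of 40 on the Het sequences (10.0%, 3.96 to 23.1%). Counted from L(3)mbt, 20 of 178 peaks on the arm bases met 2.2 (11.2%, 7.39 to 16.7%), against 17.9% of all L(3)mbt peaks and 13.9% on the long arms outside.

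Peaks of the 3 lists that overlapped were then joined into sites, 517 in the zones. The 375 sites of the arm bases comprised 122 with BTB alone, 80 with L(3)mbt alone, 78 with BTB and L(3)mbt, 64 with 2.2 and BTB, 18 with all 3, 11 with 2.2 alone and 2 with 2.2 and L(3)mbt. L(3)mbt alone made up 21.3% of them (17.5 to 25.8%), against 13.6% (12.8 to 14.5%) of the 6508 sites on the long arms outside. The arms differed, with 36.4% at the 2L base, 28.3% at 2R, 21.3% at 3R, 10.6% at 3L and 8.97% at X. The 102 sites of the Het sequences comprised 46 with BTB alone, 18 with 2.2 alone and 18 with 2.2 and BTB, 13 with L(3)mbt alone, 3 with BTB and L(3)mbt, 3 with all 3 and 1 with 2.2 and L(3)mbt. The 2.2 isoform alone made up 17.6% of them (11.5 to 26.2%), against 2.47% on the long arms outside and 9.92% of the 1835 sites on the unplaced sequences. The sequences differed, with 9 of 25 sites on 3RHet, 7 of 35 on 2RHet and 1 of 32 on 3LHet. On XHet it was 1 of 4, on YHet 0 of 4 and on 2LHet 0 of 2. The 40 sites of chromosome 4 comprised 24 with BTB alone, 6 with 2.2 and BTB, 5 with L(3)mbt alone, 4 with BTB and L(3)mbt and 1 with 2.2 alone. BTB alone made up 60% of them (44.6 to 73.7%), against 32.0% on the long arms outside and 54.4% on the unplaced sequences. Without the cluster at the end of the chromosome it made up 10 of 26 (38.46%, 22.4 to 57.5%), an interval that takes in the share on the long arms outside.

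The strongest triple site lay on 2L from 21214496 to 21215924, where the peaks of all 3 lists reached the ceiling. Of the 18 triple sites at the arm bases, 6 were on 3R, 5 on 3L, 3 on X, 3 on 2L and 1 on 2R. On 3R, from 484364 to 486054, 2.2 and BTB were at the ceiling and L(3)mbt scored 1554.07. On X, from 20630769 to 20632221, 2.2 and BTB were at the ceiling and L(3)mbt scored 542.32. On 2R, from 157679 to 160717, L(3)mbt scored 1855.15, a percentile rank of 94.4 in its list, and 2.2 scored 275.20, a rank of 36.1 in its own, over BTB peaks of 711.00 and 321.78. On 3L the highest of the 5 by mean rank ran from 22827812 to 22829446, where 2.2 scored 475.77, BTB 3100 and L(3)mbt 548.72.

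Most L(3)mbt peaks at the arm bases, 158 of 178, lacked 2.2, as did 2753 of all 3352 and 2336 of the 2712 on the long arms outside. The strongest at the arm bases were described one by one. The highest on 2R, the triple site from 157679 to 160717, met 2.2 and BTB. The 3 peaks of L(3)mbt at the ceiling in the zones were all on 2L. One was the triple site, and the others, from 21219462 to 21221832 and from 21676487 to 21682586, met BTB without 2.2. The last of these was 6100 bp wide, the widest L(3)mbt peak at the arm bases, over a BTB peak that scored 348.25. The highest on 3R, from 1422728 to 1427398, scored 2667.47 and met BTB. The highest on X, from 21228545 to 21229950, scored 905.82 and met BTB at the ceiling. The highest on 3L, from 23085441 to 23089082, scored 1428.30 and met neither other list.

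Among the L(3)mbt peaks of the 2L base was a run of wide peaks, picked out after the positions were seen. Between 21422049 and 21533922, a span of 112 kb, there were 13 L(3)mbt peaks, 24.5% of those at the 2L base. Their median width was 3007 bp (1433 to 3666), against 1531.5 bp for the other 40 L(3)mbt peaks of that base, and they covered 33.3% of the span. Their scores were moderate, from 102.65 to 519.33 with a median of 299.48. The same span held 2 BTB peaks, at 118.96 and 138.28, and 3 peaks of 2.2, from 101.37 to 257.88. Only 1 of the 13 met BTB, and 2 met 2.2. Those 2, in the sites from 21477266 to 21480221 and from 21531686 to 21533922, were the only sites at the arm bases with 2.2 and L(3)mbt and without BTB, a class that held 5 of the 6508 sites on the long arms outside and 120 of the 1835 on the unplaced sequences (6.54%). Of the 12 distances between the starts of neighbouring L(3)mbt peaks, 5 lay between 4.29 and 5.34 kb and 3 between 9.64 and 10.9 kb. The others were 2.00, 2.90, 19.7 and 29.0 kb. Without the run, 95 of 165 L(3)mbt peaks at the arm bases met BTB (57.6%, 49.9 to 64.9%). The 2L base then held 40 L(3)mbt peaks, fewer than its 50 BTB peaks. Their density was 23.5 per Mb, against 29.2 with the run and 24.9 on the long arms outside. Windows of 100 kb that ran upward from the start of each L(3)mbt peak held up to 12 L(3)mbt starts at the arm bases. On the long arms outside the median was 4, the 99th percentile 11 and the highest count 16.

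Chromosome 4 held few sites, and its peaks of 2.2 and of L(3)mbt are given one by one. Of the 7 peaks of 2.2, 4 were at the ceiling, from 434210 to 437484, from 510387 to 511542, from 961744 to 962849 and from 1133137 to 1134706, and each met BTB. The peak from 427238 to 428094 scored 938.97 and met BTB, and so did the weak one from 1104960 to 1105913, at 112.56. The first, from 67737 to 68674, scored 143.43 and met no BTB peak. The 9 L(3)mbt peaks were all below the ceiling. Those from 88868 to 90054, from 577499 to 579176, from 856080 to 857067 and from 1000173 to 1001199 met BTB and scored 697.11, 384.47, 122.11 and 347.44. Those from 86564 to 88336, from 478938 to 480147, from 679605 to 681751, from 690628 to 692327 and from 887209 to 888190 met nothing and scored 502.50, 212.10, 746.83, 311.08 and 254.81. No site held both proteins, but with 7 and 9 peaks a count of 0 allows shares of up to 42.9% and 33.3%. Over all peaks, 21.0% of 2.2 peaks met L(3)mbt and 17.9% of L(3)mbt peaks met 2.2, both within those limits. No peak of any list lay between 90176 and 427237, a span of 337 kb.

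The high-coordinate end of chromosome 4 held a cluster of BTB peaks with no peak of another list. From 1278256 to 1323289, 45.0 kb or 3.40% of the length spanned, there were 14 BTB peaks, 40% of the 35 on the chromosome, and 0 peaks of 2.2 or L(3)mbt. Of the 14, 7 were at the ceiling, and the weakest scored 109.49. They were 489 to 2279 bp wide and together covered 33.0% of the span, with starts a median of 3674 bp apart. Of the other 21 BTB peaks of the chromosome, 9 were at the ceiling, 7 met 2.2, 4 met L(3)mbt and 10 met neither. Their density was 16.4 per Mb, so the cluster carried a large part of the 26.4 per Mb for the whole chromosome. Together with the BTB peak from 1167035 to 1167406, the cluster made 15 sites in a row held by BTB alone, over 156 kb. The next longest rows were 14 sites on 2R outside the zones, over 37.7 kb, and 13 on U. Without that added peak, the 14 sites of the cluster equal the row on 2R in count, over a longer span. In count alone the cluster was matched elsewhere. Windows of 50 kb that ran upward from the start of each BTB peak held up to 14 BTB starts on chromosome 4. On the long arms outside they held up to 19, with a median of 4 and a 99th percentile of 11. The cluster was picked out after the positions were seen, and no other isoform of Mod(mdg4) was mapped in these libraries.

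**Figure D4:**
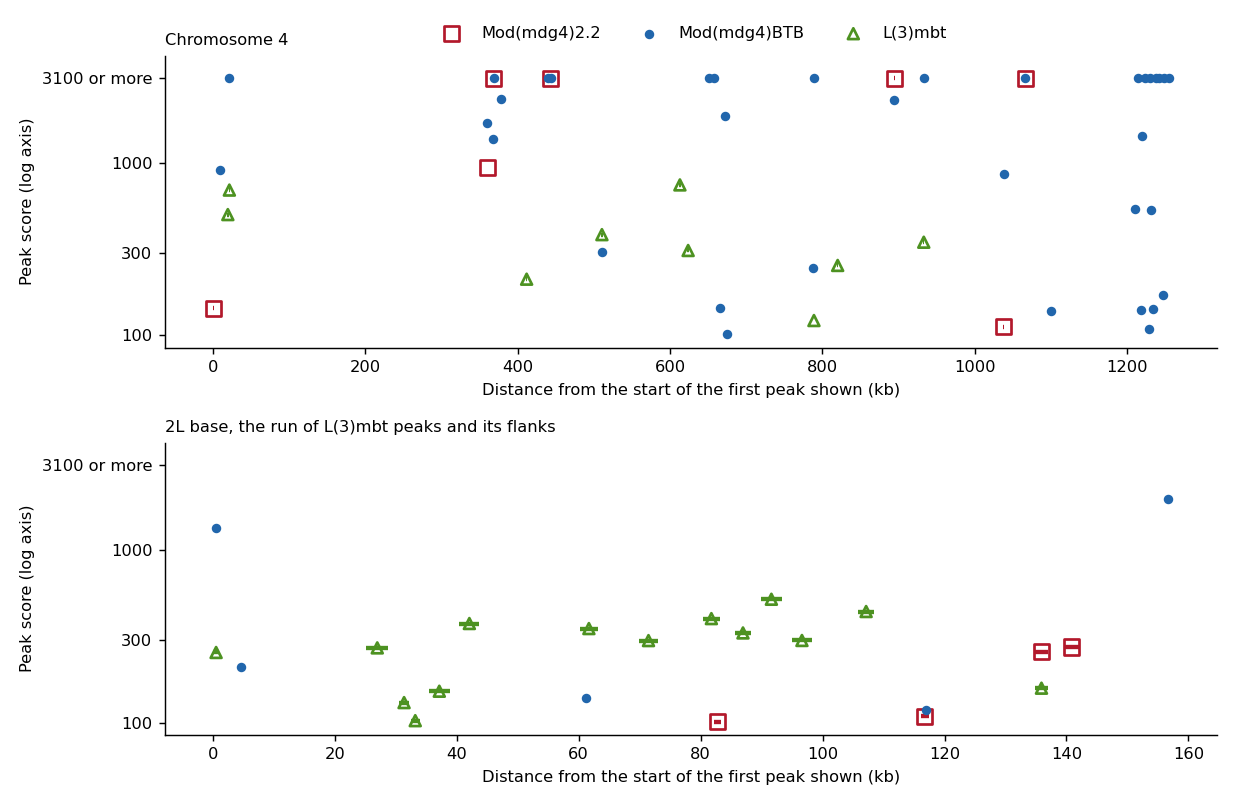
Score of each peak (log axis, with scores of 3100 or more set at 3100) against its distance in kb from the first peak shown, on chromosome 4 (upper panel) and around the run of L(3)mbt peaks on 2L (lower panel). Open squares are 2.2, filled circles BTB and open triangles L(3)mbt, and horizontal lines span the peak. At the right of chromosome 4 stand 14 BTB peaks without another list, and in the lower panel 13 wide L(3)mbt peaks hold scores of 102.65 to 519.33.

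Strong sites were also present within placed heterochromatin. Sites where 2.2 and BTB both reached the ceiling lay on 2RHet from 2629075 to 2630530, on 3LHet from 1284972 to 1286447 and on 3RHet from 1523481 to 1524933, 1 on each of the larger sequences, and L(3)mbt met none of them. Another pair on 3LHet, named after its values were seen, from 2279399 to 2280986, scored 2464.26 for 2.2 and 2308.93 for BTB. The triple sites were 3. The one on 2RHet, from 361397 to 371062, held the widest 2.2 peak of the zones, 9638 bp with a score of 2256.44, over 3 BTB peaks of 1693.49, 1442.37 and 3100, and a broad L(3)mbt peak of 105.73. The others, on 3LHet from 570674 to 572507 and from 1661438 to 1663123, had 2.2 peaks of 504.74 and 229.57, BTB peaks of 862.12 and 378.73 and L(3)mbt peaks of 160.67 and 183.20.

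The highest L(3)mbt scores on 3LHet and 2RHet were at sites of that protein alone. They were 2130.23 on 3LHet from 2397257 to 2400220, 1695.08 on 3LHet from 2211018 to 2214425, and 947.79 on 2RHet from 3179380 to 3183923, with widths of 2964, 3408 and 4544 bp. Of the 10 L(3)mbt peaks on 3LHet, 4 met BTB, among them one, also named after its values were seen, from 2386261 to 2387518 that scored 806.94 over a BTB peak of 1509.04. The 6 on 2RHet had 1 that met BTB, and the 2 on 3RHet had none.

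On 3RHet the weak peaks of 2.2 came in a series, picked out after the positions were seen. Between 445927 and 851123 lay 9 sites of 2.2, of which 7 had no BTB peak and 2 had one. All 9 peaks of 2.2 without BTB on that sequence scored between 100.43 and 172.93 and were 991 to 3697 bp wide. These scores stand near the floor of the list. BTB on 3RHet had 14 peaks with a median percentile rank of 44.9, against 16.0 for the 13 of 2.2 in their own list.

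**Figure D5:**
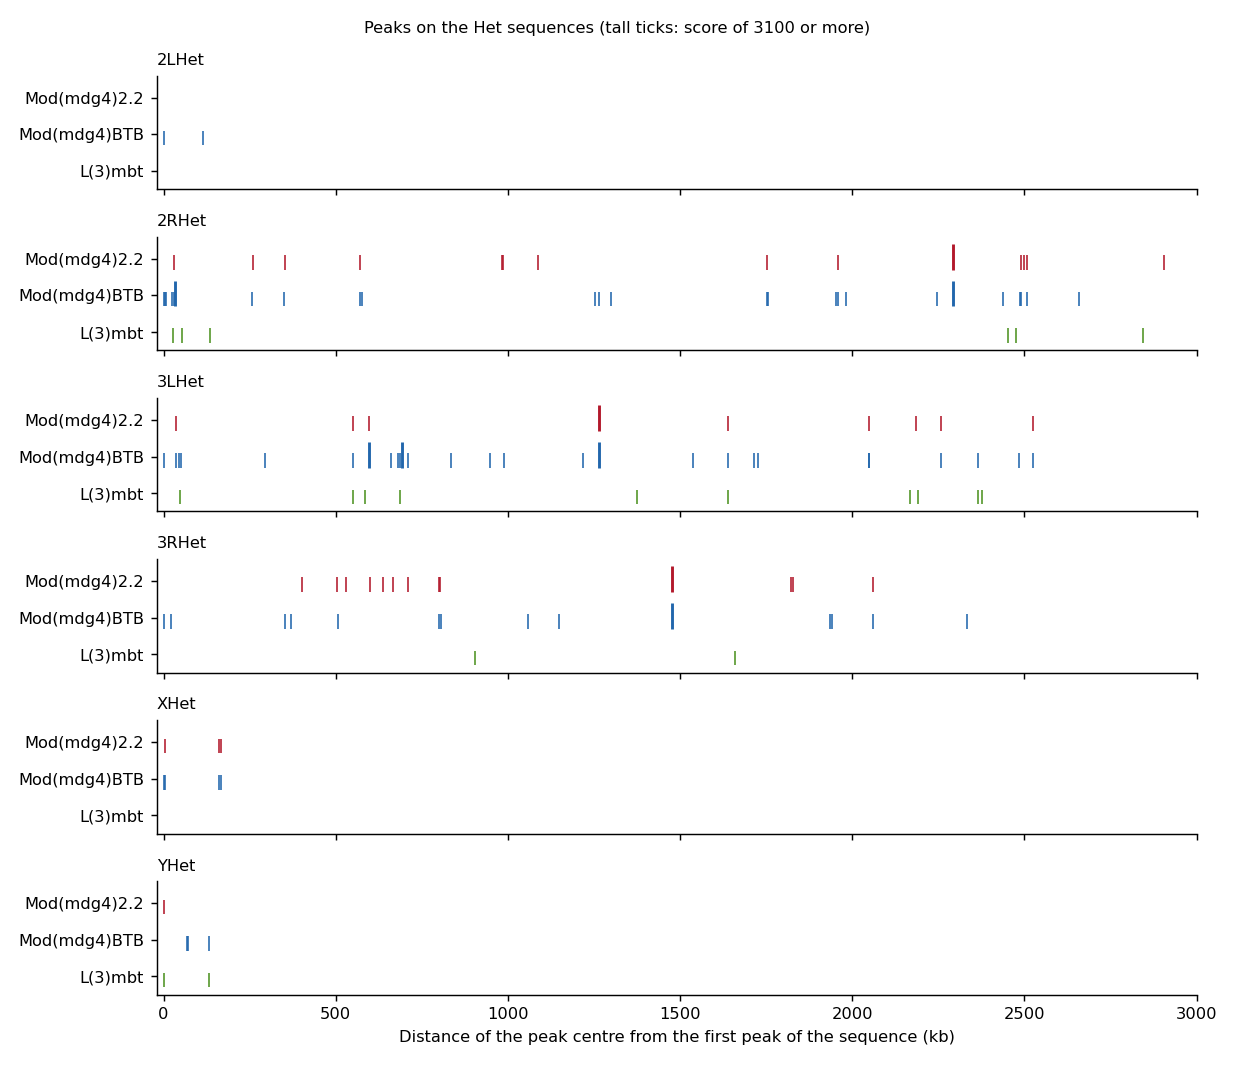
Position of each peak on the 6 Het sequences, as the distance of its centre from the first peak of that sequence in kb, with 1 row per list and tall ticks for scores of 3100 or more. The 2.2 and BTB rows share a tall tick on 2RHet, 3LHet and 3RHet, and 3RHet shows the row of 2.2 peaks without BTB.

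The 3 shortest Het sequences held few peaks, which are given one by one. On 2LHet there were 2 BTB peaks, of 179.74 and 120.29, and no others. On XHet a wide 2.2 peak from 34996 to 41280 scored 306.38 over BTB peaks of 691.37 and 424.65. A second, from 195936 to 197483, scored 168.59 over a BTB peak of 2503.65, and another, from 199737 to 202015, scored 165.23 with no BTB peak. A further BTB peak there scored 535.07, and L(3)mbt had none. On YHet, L(3)mbt and 2.2 met from 4411 to 5083 without BTB, at 1144.89 and 276.82, the only site of that class on the Het sequences. L(3)mbt also met BTB from 136933 to 137617, at 432.74 and 376.44, and BTB peaks of 172.76 and 194.37 lay between. Kc cells are of female origin and YHet is sequence assigned to the Y chromosome. From which copies the reads at these 6 peaks came was not tested.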

How the data were processed

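The 3 peak lists, 1 per antibody, were used as the authors deposited them, each with a sequence name, start, end, peak name and score. The score is the deposited value of the peak caller. Scores at or above 3100 were treated as tied and served only as ranks within a list. Bowtie 0.12.5 served as the read aligner, as the submitters' processing notes list it. MACS is the caller whose naming pattern the peaks carry, per the files. Its settings and the genome build were not given in the sources used here. Sequence names such as 2LHet are those of release 5 of the assembly. The gene table at hand belongs to release 6, so no gene, motif or base sequence is given, and positions are printed counting from 1.

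Zone lengths run from the border of the zone to the highest peak end in any list. Peaks met when they shared at least 1 bp, and overlapping peaks were joined into sites. A percentile rank is the position of a score in its whole list, with ties averaged. Most counts are set beside the same count over all peaks, and no significance test was run. Alternatives were an overlap of 50% of the shorter peak, peaks set to 400 bp, the upper 50% of each list and borders moved by 500 kb. Named are the triple sites (at most 5 per zone, of which the text gives the first or all), the highest score per zone and list, all 2.2 and L(3)mbt peaks of chromosome 4, sites with 2.2 and L(3)mbt but no BTB, the widest peaks and the longest empty intervals. Others are said to have been picked out later. The zones, lists and rules were chosen with earlier results of these data known. The overlap code was tested on made-up peaks with planted overlaps. Python 3.11.15, numpy 2.4.6, pandas 2.3.3, scipy 1.17.1 and matplotlib 3.10.9 were used.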

Additional observations from a re-analysis of the deposited data

How the results depend on the processing

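No paired analysis was possible because there was 1 library per antibody. Requiring 50% of the shorter peak left every share of the zones inside its interval, and it does not bear on densities. Moving the borders of the arm bases 500 kb away from the centromere left every share and density of the arm bases inside its interval. With borders 500 kb nearer the centromere, the arm bases held 7.72 peaks of 2.2 and 26.7 of BTB per Mb. With peaks set to 400 bp around their centres, 2.2 met BTB at 35.0% on the Het sequences and L(3)mbt met BTB at 43.8% at the arm bases. BTB then met 2.2 at 18.7% on the Het sequences, and L(3)mbt at 26.7% at the arm bases and 5.33% on the Het sequences. On the long arms outside, the 400 bp setting gave 86.4%, 54.0%, 31.4% and 25.4% for 2.2 with BTB, L(3)mbt with BTB, BTB with 2.2 and BTB with L(3)mbt. The cause of these moves was not tested. The upper 50% of each list by score holds fewer peaks by construction. It left 5.95, 16.1 and 8.51 peaks per Mb of 2.2, BTB and L(3)mbt at the arm bases, 0.915, 3.32 and 0.80 on the Het sequences, and 18.1 of BTB on chromosome 4. In it 2.2 met BTB at 100% of 5 peaks on chromosome 4. L(3)mbt met BTB at 31.3% and 14.3%, and 2.2 at 6.02% and 0%, and BTB met L(3)mbt at 17.8% and 3.45%, each at the arm bases and on the Het sequences in that order. The same 3 shares on the long arms outside were 49.8%, 6.46% and 23.1%. Over these settings 43 of 55 recomputed shares stayed inside their intervals. The settings reuse the same peaks, and the intervals are wide where peaks are few, so staying inside shows little there. Other alternatives were chosen after seeing the data. Leaving out 1 Het sequence at a time kept all 5 shares of the Het sequences inside. Without the run on 2L, L(3)mbt with BTB at the arm bases and sites of L(3)mbt alone, at 19.3%, stayed inside. Without the cluster at the end of chromosome 4, BTB alone held 38.46% of the sites there, while the shares of BTB peaks with L(3)mbt and with 2.2 stayed inside. Depth is unknown, so a zone without peaks is not shown to be without binding.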

Other observations

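The genes under the run of L(3)mbt peaks on 2L were not identified here. The replication-dependent histone genes of the fly are known to form a tandem array near the base of 2L. A search by gene name in the later-release gene table found 111 histone genes on 2L, all neighbours in 1 row. That search need not take in every histone gene. Coordinates of that release cannot be applied to these lists, so the position of the run relative to the array was not tested.

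Where 2.2 and BTB peaks met on chromosome 4, the centres of the 6 pairs lay a median of 17.2 bp apart. On the Het sequences the median was 120 bp over 21 pairs, against 40.5 bp on the long arms outside. L(3)mbt and BTB centres were a median of 116.5 bp apart at the arm bases and 136.5 bp apart on the Het sequences, against 120.5 bp on the long arms outside. The widest 2.2 peak of the arm bases, 7949 bp on X from 21512127 to 21520075, scored 238.93. The widest BTB peak there, 5668 bp on 3R from 1572944 to 1578611, scored 1125.13. The widest BTB peak of the Het sequences, 3991 bp on YHet from 72379 to 76369, scored 194.37.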
